A study of Xenopus tropicalis with 4 samples.

Results

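The sites described here are intronic sites on the strand opposite to their gene, in 3′-end sequencing of whole-body RNA from adult *Xenopus tropicalis*, the western clawed frog. They are the rows of the deposited site table with class code i, read as lying within an intron, whose strand is opposite to that of the same gene's sites in or just beyond its exons (class codes c, o, e, = and p). Genes with no such site of their own were left out, which set aside 1067 of 12632 intronic sites. The rule found 1274 opposite-strand intronic sites, called opposite-strand sites below, which are 1.92% of 66426 sites and 11.0% of the intronic sites of genes with a known strand. They lie in 956 of 14662 genes with a known strand (6.52%), called host genes below. Of these sites 675 are on the plus strand and 599 on the minus strand. The table gives each site a strand, but how it was assigned is not stated, and a read given the wrong strand would make a site of a gene look like one of these.

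The libraries were made by whole transcriptome termini site sequencing (WTTS-seq), in which fragmented RNA is enriched for poly(A) tails and read near its 3′ end. Libraries came from 2 adult males and 2 adult females, 1 per frog, with the whole body as tissue. No strain, age in days or treatment is given in the labels. The series asked whether the sexes use different polyadenylation sites.

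Most messenger RNAs end where the cleavage and polyadenylation machinery cuts the transcript downstream of a hexamer signal and adds a tail. A polyadenylated end inside an intron but on the other strand cannot belong to the annotated transcript of that gene. Known sources of such ends in animal genomes are antisense and divergent noncoding RNAs, genes nested within introns, unannotated genes, and convergent neighbours whose 3′ ends run past the annotated one. WTTS-seq reads that start at internal A-rich stretches can also look like ends, and no genome sequence was used here to look for such stretches.

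Read totals per library were 2779715 and 1531471 in males 1 and 2, against 2380500 and 1778737 in females 1 and 2. Marker genes of several tissues differed between the sexes. Summed egg and oocyte markers stood at 7.73 and 10.4 CPM, the read count scaled to a common library size, in males and 4455 and 4333 CPM in females, with 14 of 15 tested higher in females. Of the 16 egg markers with reads, 10 had none in either male, among them zp2 and zpd of the egg coat and zar1. Skeletal muscle markers summed to 152971 and 84120 CPM in males and 11414 and 5693 CPM in females, with 19 of 19 higher in males. Liver and nervous system markers were higher in males for 10 of 14 and 10 of 11 tested genes. Testis and sperm markers summed to 81.2 and 65.0 CPM in males and 343 and 269 CPM in females, with 2 of 6 tested higher in males and 4 in females. In such whole-body RNA, fewer cells of a type and less RNA per cell cannot be told apart. What part these tissue differences have in the results below was not tested.

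Male 1 stands apart at intronic sites and, less strongly, at sites outside annotated genes. Of 478 opposite-strand sites with at least 10 reads, 74 (15.5%) had at least 90% of their reads in male 1, against 10 (2.09%) in male 2, 17 (3.56%) in female 1 and 9 (1.88%) in female 2. Own-strand intronic sites did the same, with 586 of 5161 (11.4%) in male 1. Sites outside annotated genes had 297 of 3897 (7.62%) in male 1, against 2.36% in female 2, the next highest. Exonic sites had 228 of 23017 (0.991%) in male 1, and there female 2 had most, 1139 (4.95%). These shares use raw reads, and male 1 was the deepest library. A site in cacna2d2, an auxiliary calcium channel subunit (chromosome 4, minus strand, 117421747), had 235 reads in male 1 and 0 in male 2 and in both females. The site in smc1a, a cohesin subunit (chromosome 8, plus strand, 3079949), had 222 and 0 reads in males 1 and 2, against 1 and 0 reads in females 1 and 2. Female 1 has its own case in caprin1, an RNA-binding protein, where the site at 7296231 on chromosome 4 had 0 reads in both males and 349 and 0 reads in females 1 and 2. None of these 3 sites entered the test of the sexes, which asks for reads in more than 1 library. How the calls fared without male 1 is given with the test below.

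Opposite-strand sites were a small and thinly read class. They held 11046 and 3450 reads in males 1 and 2, against 5756 and 3328 reads in females 1 and 2. All 4 libraries together had 23580. The median site had 6 reads over the 4 libraries (quartiles 2 and 15) and the deepest had 1306. Of all 1274 sites, 206 rested on a single read, 523 were seen in 1 library only and 117 in all 4, while 34 had at least 100 reads. Own-strand intronic sites had a median of 10 reads and exonic sites 16. Among sites with 10 to 99 reads their recorded span had a median of 16 bases (quartiles 6 and 34), close to 13 bases for own-strand intronic sites, and below 30 bases for exonic sites and 35 bases for downstream ones.

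As a share of all reads the class held 0.397% and 0.225% in males 1 and 2 (exact 95% intervals 0.390 to 0.405 and 0.218 to 0.233) and 0.242% and 0.187% in females 1 and 2 (0.236 to 0.248 and 0.181 to 0.194). Male 2 lies between the females, so the sexes overlap. The means were 0.311% ± 0.122 in males and 0.214% ± 0.0387 in females (SD, n = 2 each), and a two-sided exact permutation test gave p = 0.667. Scaled by TMM, edgeR's normalization that sets most sites level between libraries, the class summed to 5336 and 2770 CPM in males and 1996 and 1373 CPM in females. On that scale the sexes do not overlap, and the exact permutation test gave p = 0.333, the smallest it can give with 2 frogs against 2. A scaling to somatic tissue markers, described below, lowers male values by 3.58 log2 units against female ones and turns this order.

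Set against own-strand intronic reads, the order of the sexes is turned round. Own-strand intronic reads themselves made up 4.05% and 3.34% of all reads in males and 1.99% and 1.33% in females. The ratio therefore carries the sex difference of its divisor, and it does not show fewer opposite-strand reads in males. Males had 9.82 and 6.75 opposite-strand reads per 100 own-strand intronic reads, and females had 12.2 and 14.0. Both males lie below both females, at 8.28 ± 2.17 against 13.1 ± 1.34 (SD, n = 2 each; exact permutation p = 0.333, the smallest possible). The difference in log2 ratio was -0.68, and -0.37 without the sites near another gene described below. Within the host genes alone the order was the same, with 50.03 and 36.3 reads in males and 62.3 and 71.2 in females per 100 own-strand intronic reads of the same genes. Against the exonic and downstream reads of those genes the sexes overlapped, at 5.90 and 3.45 per 100 in males and 3.74 and 2.90 in females.

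**Figure D1:**
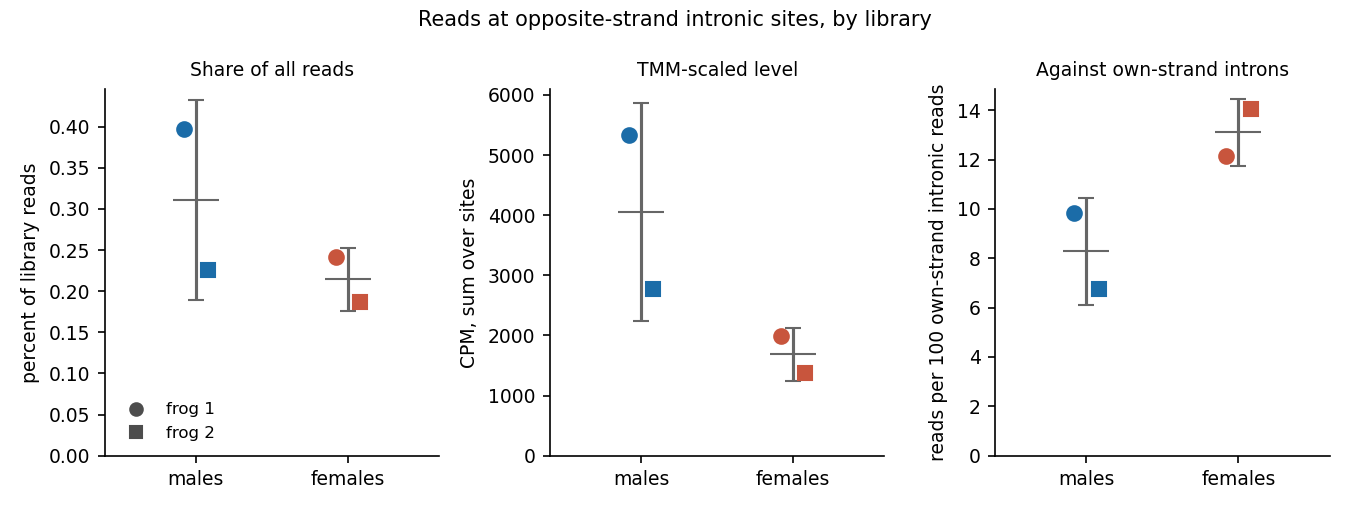
Reads at the 1274 opposite-strand intronic sites in each library, as a percent of all reads (left), as summed TMM-scaled CPM (middle) and per 100 own-strand intronic reads (right), with males left of females. Points are frogs and bars are the mean and SD of 2 frogs. The sexes overlap in the left panel, males are higher in the middle one (5336 and 2770 against 1996 and 1373 CPM), and males are lower in the right one (9.82 and 6.75 against 12.2 and 14.0). The divisor of the right panel was itself higher in males, at 4.05% and 3.34% of reads against 1.99% and 1.33%.

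The number of sites seen gives the same order as the right panel of that plot. Opposite-strand sites with at least 1 read numbered 566 and 580 in males 1 and 2, against 669 and 663 in females 1 and 2. At the depth of the shallowest library, 1531471 reads, the numbers expected were 523 and 580 in males and 585 and 622 in females. Own-strand intronic sites go the other way, so that for every 100 of those seen at that depth, males had 8.92 and 7.45 opposite-strand sites and females 14.1 and 15.6. The other antisense class, sites opposite to an exon, held 0.479% and 0.277% of reads in males and 3.59% and 2.67% in females.

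Host genes also held other kinds of site. Of the 956 hosts, 517 (54.1%) also had an own-strand intronic site, against 3950 of 13706 other genes (28.8%). A site opposite to one of their exons was recorded for 147 hosts (15.4%) and 760 other genes (5.55%). These shares are descriptions, since longer and more deeply read genes can hold more sites of any kind and gene length was not used here. Opposite-strand sites lay a median of 5968.5 bases from the nearest own-strand site of the host (quartiles 1549 and 25752), with 8 of them within 100 bases and 227 within 1000. Relative to all intronic sites of genes with a known strand they were fewest on chromosome 5, at 7.45 per 100, and most frequent on chromosome 10, at 20.0 per 100.

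A large group of opposite-strand sites lies just beyond the recorded end of another gene on the same strand. The nearest site of another gene was within 5000 bases for 261 of them (20.5%). For 255 of those 261 the opposite-strand site was downstream, that is, past the neighbour's site in the direction of its transcription. This direction may be partly set by how sites are assigned to genes. A site before the neighbour's end can lie inside that neighbour and be given to it instead. How far this shapes the counts was not tested. Own-strand intronic sites lay within 5000 bases of another gene's site in 130 of 10291 cases (1.26%). That is not a like baseline, since their neighbour lies on the host's strand and that of an opposite-strand site on the other. With distance the imbalance shrank. Downstream positions made up 71 of 73 sites within 1000 bases, 184 of 188 from there to 5000 bases, 80 of 102 up to 10000 bases, 244 of 395 up to 50000 bases and 282 of 501 beyond. The 261 sites pair 182 hosts and neighbours, and of 157 pairs with both symbols in RefSeq's gene table (assembly UCB_Xtro_10.0) 148 stood within 2 places of each other in gene order.

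**Figure D2:**
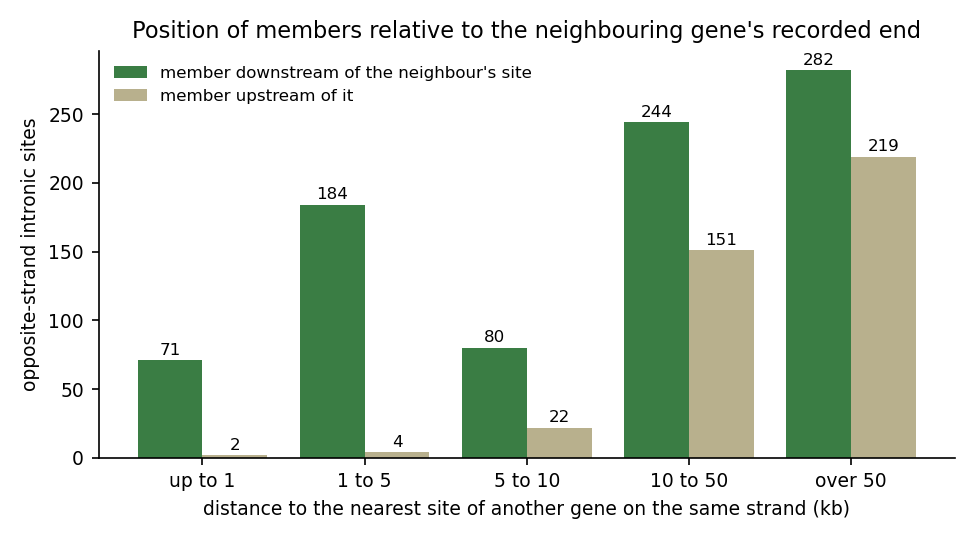
Number of opposite-strand intronic sites by distance (kb) to the nearest site of another gene on the same strand, split by whether the opposite-strand site lies downstream or upstream of it. Downstream positions number 71 and 184 in the nearest bins against 2 and 4 upstream, and 282 against 219 in the farthest. The direction may be partly set by how sites are assigned to genes.

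Near a neighbour, the male-to-female ratio at opposite-strand sites went with that of the neighbouring gene. For 87 opposite-strand sites within 5000 bases, with at least 10 reads at the site, the host and the neighbour, the log2 ratio of males over females (CPM plus 0.5) had a Pearson correlation across sites of 0.52 with the neighbour's ratio (Spearman 0.51) and -0.25 with the host's (Spearman -0.23). The sign was that of the neighbour in 61 sites (70.1%) and that of the host in 36 (41.4%). For 78 sites with a neighbour at 5000 to 20000 bases the correlations were 0.12 with the neighbour and -0.08 with the host, and for 223 sites farther away 0.08 and 0.03. With male 2 as the only male, the values for the nearest 87 were 0.55 with the neighbour and -0.32 with the host. These are descriptions across sites that share the 4 libraries, and some share a neighbour (73 genes) or a host (72 genes). Host and neighbour ratios were themselves correlated at -0.41 over these 87 sites.

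**Figure D3:**
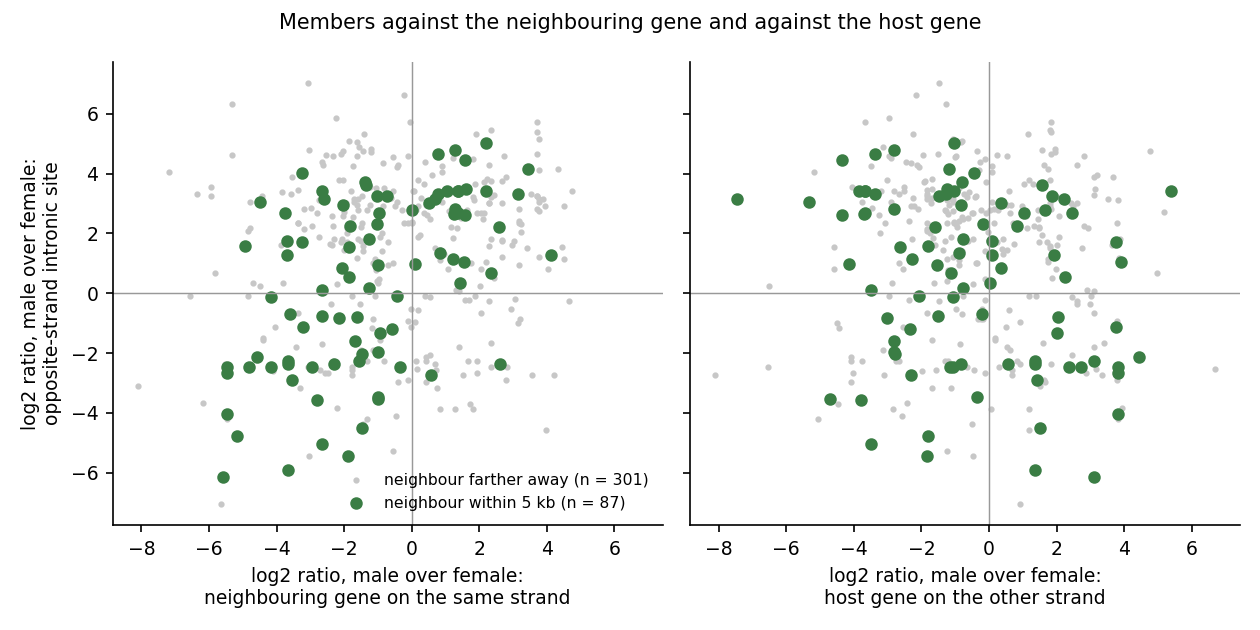
Log2 ratio of males over females at opposite-strand intronic sites (vertical axis, CPM plus 0.5) against that of the neighbouring gene on the same strand (left) and of the host gene (right). Green points are 87 sites with a neighbour within 5000 bases and grey points are 301 sites with a neighbour farther away. Green points rise from lower left to upper right in the left panel (Pearson 0.52) and not in the right one (-0.25).

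The sexes were compared site by site with edgeR's quasi-likelihood test over all sites, with Benjamini-Hochberg adjustment at 0.05. Only 98 of the 1274 opposite-strand sites (7.69%) had enough reads to enter it, and these held 44.05% of the class's reads. Of the 98, 46 passed, with 33 higher in males and 13 higher in females, where 36.1% of all 17215 tested sites passed (16.2% higher in males, 19.9% higher in females). The median log2 fold change was 1.95 over the 98 (quartiles -0.63 and 4.40) and -0.58 over all tested sites. Own-strand intronic sites had a median of 3.86, with 705 higher in males and 96 in females, and sites opposite to exons one of -1.83, with 29 and 82. A site enters the test through reads in 2 libraries, which can be those of 1 sex, so the share that passed among the tested says nothing of the untested 1176. The sexes did not overlap at 74 of the 98 (75.5%), and over all tested sites that share was 75.5%, while 36.1% passed.

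These numbers depend on male 1, on the scaling and on the read limit. Leaving out male 1 also drops sites, 17 of the 33 higher in males against 1 of the 13 higher in females. The median of all sites tested in that fit was -1.07, against -0.58 with all 4 libraries. The median given next therefore mixes lost sites with changed values. Without male 1 the median over the 71 of these sites still tested was -0.16, and 18 of the 46 calls were kept. Without female 1, female 2 and male 2 in turn, 13, 10 and 24 were kept, and 5 of the 46 passed in all 4 fits. When libraries were scaled to the muscle, liver, nerve, blood, skin and connective tissue markers in place of TMM, the median of all sites moved to -4.14 and that of the opposite-strand sites to -1.59, with 8 higher in males and 31 in females. The shift used is a median over 161 own-strand sites of these markers, intronic ones included. The tissues do not share 1 offset. Skin markers summed to 3117 and 1658 CPM in males and 1820 and 1944 in females. Connective tissue markers summed to 1275 and 638 CPM in males and 130 and 97.4 in females, and blood markers to 10400 and 10750 in males and 2738 and 387 in females. With a limit of 1 CPM in 2 libraries, 453 opposite-strand sites were tested, of which 84 were higher in males and 79 in females. The 13 sites higher in females all passed under the marker scaling too. That scaling lowers male values by 3.58 log2 units, which moves such sites further in favour of females, so it does not test these calls. Of the 33 higher in males, 25 lost the call there and 2 of these turned, in pcid2 and pcsk7. The 8 that passed are those with no female read. With no female read the scaling moves the fitted fold less, from 7.56 to 6.37 at chaf1a. At mapk14, which has female reads, it went from 5.85 to 2.38. That these 8 passed therefore does not make them firmer calls. Without male 1, 17 of the 33 could not be tested, 12 passed and 4 did not. Of the 13 higher in females, 3 passed without female 1 and 4 without female 2.

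**Figure D4:**
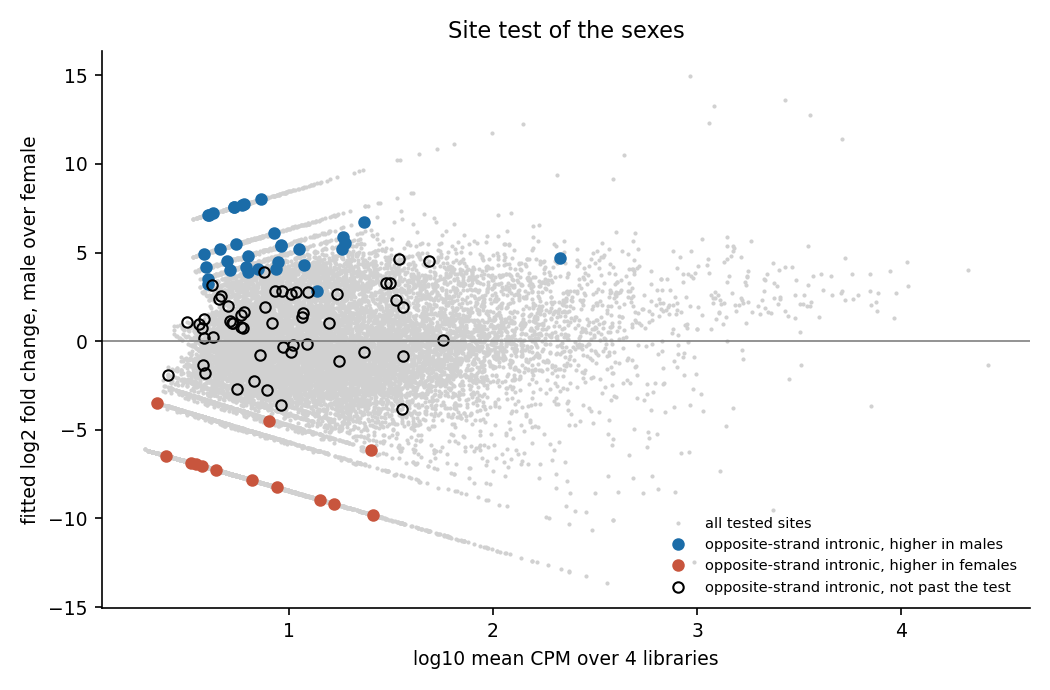
Fitted log2 fold change of males over females against log10 mean CPM over the 4 libraries, for 17215 tested sites (grey) and the 98 tested opposite-strand intronic sites. Blue points are the 33 higher in males, red points the 13 higher in females, and open circles the 52 that did not pass. Bands along the edges are sites with 0, 1 or a few reads in 1 sex.

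Among opposite-strand sites of highest level, 1 exceeded the rest by far. In LOC100493137, a protein-coding gene of the minus strand of chromosome 9, the site at 8357586 on the plus strand had 508 and 716 reads in males 1 and 2, against 42 and 40 reads in females 1 and 2. Scaled, that was 245 and 575 CPM in males and 14.6 and 16.5 CPM in females. Both males stand far above both females, at a ratio of 23.9 and a log2 fold change of 4.72 ± 0.82 (SE; edgeR adjusted p = 0.0197), and it passed in each of the 4 fits that left out 1 frog. Under the marker scaling the log2 fold change was 1.14 and it did not pass (edgeR adjusted p = 0.191). The site lies 107625 bases from the nearest own-strand site of the gene, and whether the gene model that makes it intronic is right cannot be told from the table. The host's own-strand reads, counted here and below over its exonic and downstream sites, were 10 and 8 in males and 1 and 0 in females.

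The other 9 of the top 10 by level did not pass, or could not be tested. At pcdh1, a protocadherin of cell adhesion, the site at 20914480 on chromosome 3 had 624 and 4 reads in males and 4 and 1 in females, so that its level is that of male 1. Sites in farp1 (118002197 on chromosome 2) and nfx1, an X-box-binding transcription factor (62231910 on chromosome 6), were alike, with 380 and 3 reads in males and 23 and 0 in females at farp1, and 270 and 3 in males and 14 and 1 in females at nfx1. Their log2 fold changes were 4.50 ± 1.94 and 4.61 ± 1.71 (edgeR adjusted p = 0.102 and 0.0682), and without male 1 they were -0.78 and -0.18. Znf341, a zinc finger protein, had 233 and 2 reads in males and 21 and 11 in females at 33212971 on chromosome 10, with log2 fold changes of 3.27 with male 1 and -1.84 without it.

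A steadier case is med1, a subunit of the Mediator complex that links transcription factors to RNA polymerase II. Its opposite-strand site (3254559, chromosome 10, minus strand) had 140 and 62 reads in males and 205 and 95 reads in females. Relative to TMM scaling the sexes are near level, with a log2 fold change of 0.09 ± 0.65 (adjusted p = 0.919, edgeR), and it was -0.62 with library size alone and -3.48 with the marker scaling. On its own strand med1 had 10 and 14 reads in males and 192 and 266 in females, a log2 fold change of -3.06 ± 0.68 (edgeR adjusted p = 0.0156). The nearest other gene on the site's strand is cdk12, a kinase of the RNA polymerase II tail, and the site lies 1115 bases upstream of its nearest site.

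Of the other named sites in the top 10, prpf39.2, which encodes a splicing factor (35393226, chromosome 4), had 67 and 25 reads in males and 213 and 47 in females (log2 -0.82 ± 0.81, edgeR adjusted p = 0.445). Rcan2, a calcineurin regulator (142821725, chromosome 5), had 160 and 43 reads in males and 52 and 10 in females (2.33 ± 0.91, adjusted p = 0.0778 by edgeR). LOC100488359 (113025130, chromosome 7) had 52 and 112 reads in males and 40 and 39 in females, and LOC105947078 (524484, chromosome 9) had 14 and 3 in males and 363 and 21 in females, with edgeR adjusted p = 0.0947 and 0.0524. The last lies just outside the threshold, as does arvcf at 0.0534, while pcid2 at 0.0445 and tmem220 at 0.0495 lie just inside.

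Of the named sites higher in males, 10 had reads in at least 1 female. LOC105946847 is a long noncoding RNA gene in RefSeq, on chromosome 3, and its site at 65994841 had 123 and 42 reads in males and 0 and 2 in females. That is a ratio of 132 (exact 95% interval 36.0 to 1100, counting error only) and a log2 fold change of 6.71 ± 1.24 (edgeR adjusted p = 0.0197), and it passed in all 4 fits without 1 frog. In mapk14, the p38 alpha stress kinase, the site at 61627393 on chromosome 2 had 61 and 54 reads in males and 1 and 2 in females. Both males are high and level, the ratio was 61.4 (20.5 to 302), the log2 fold change 5.85 ± 1.04, and the site also passed in all 4 of those fits. Under the marker scaling neither passed, with log2 fold changes of 3.29 for LOC105946847 and 2.38 for mapk14 (edgeR adjusted p = 0.0587 and 0.0789). The sites of mapk14 on its own strand had 21 and 15 reads in males and 37 and 68 in females, a log2 fold change of -0.44 that did not pass (edgeR adjusted p = 0.67).

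Rasa3, a Ras GTPase-activating protein, had 134 and 11 reads in males and 2 and 2 in females at 108542595 on chromosome 2, a log2 fold change of 5.51 ± 1.29 (edgeR adjusted p = 0.0198). Male 1 holds most of it, and without male 1 the adjusted p was 0.294. Hnrnpl, an RNA-binding splicing regulator (59426162, chromosome 8), had 56 and 21 reads in males and 3 and 0 in females, with a ratio of 41.1 (13.5 to 204). Kctd5, an adaptor of cullin ubiquitin ligases (22966419, chromosome 9), had 33 and 25 reads in males and 2 and 0 in females, and nfatc3, a calcineurin-regulated transcription factor (44095456, chromosome 4), had 16 and 13 in males and 1 and 0 in females. Without female 2, hnrnpl and kctd5 did not pass (edgeR adjusted p = 0.12 and 0.125), and nfatc3 could not be tested without male 1 and did not pass in the other 3 such fits.

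In 8 opposite-strand sites higher in males there was no read in either female. Their folds are lower bounds under TMM scaling, against 3 reads over both female libraries. They lie in LOC101734953 (109739065 on chromosome 7, 39 and 13 reads in males, at least 27.7-fold higher in males), acly, the enzyme that makes acetyl-CoA from citrate (2158878 on chromosome 10, 32 and 11, at least 22.9-fold), and h3f3a, histone H3.3 (4485010 on chromosome 5, 24 and 15, at least 20.8-fold). Others are in chaf1a, the large subunit of the histone chaperone CAF-1 (74933307 on chromosome 1, 28 and 10, at least 20.3-fold), ankrd45 (96799338 on chromosome 4, 23 and 13, at least 19.2-fold) and pi4ka, a phosphatidylinositol kinase (145190318 on chromosome 1, 17 and 11, at least 14.9-fold). The last are LOC101733406 (155236186 on chromosome 2, 17 and 10, at least 14.4-fold) and LOC100490651 (141196896 on chromosome 2, 15 and 11, at least 13.9-fold). These bounds hold under TMM only. The marker scaling, which lowers male values by 3.58 log2 units, would lower each bound by that amount. All 8 sites had more reads in male 1 than in male 2, whose library was the smaller. Without male 1, h3f3a passed and the other 7 could not be tested, and without female 1 or female 2 the only one to pass was LOC101734953. Histone genes have near-identical copies, so reads at h3f3a may belong elsewhere.

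The 13 opposite-strand sites higher in females were nearly empty in males, and 10 had no read in either male. This is partly set by the test and is no separate result. A site in ddx49, with 6 and 2 reads in males and 39 and 22 in females, did not pass (edgeR adjusted p = 0.0982). The share of such empty sites among all sites that passed was not counted. The deepest of the 13 lies at 107550 on chromosome 9 in LOC108648774, with 0 reads in both males and 156 and 121 in females (at least 57.7-fold higher in females, against 3 reads over both male libraries). Another is the site at 61688234 on chromosome 8 in gstz1, an enzyme of tyrosine breakdown, with 0 reads in both males and 105 and 50 in females (at least 32.3-fold). Both passed in all 4 fits without 1 frog. In ppm1b, a protein phosphatase (14786436, chromosome 5), the females differ, with 0 reads in both males and 89 and 10 in females (at least 20.6-fold, edgeR adjusted p = 0.0297). LOC100485504 (4015199, chromosome 2) had 0 reads in both males and 12 and 24 in females (at least 7.496-fold). Without female 1 the ppm1b site could not be tested, and the LOC100485504 site passed in none of the 4 fits.

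Several of the sites higher in females have a neighbour with the same difference close by. Of the 13, 7 have a neighbour's site within 5000 bases, and not all of these neighbours differ so. The mapk15 site at 55140 on a scaffold (0 reads in both males, 17 and 10 in females) lies 4946 bases past LOC108644443. That gene did not pass (log2 -0.72 ± 0.77, edgeR adjusted p = 0.483). Fbxl14, near the wnt5b site, and phlda2, near the LOC101732839 site at 103267982, were not tested. The gstz1 site lies 697 bases downstream of a site of LOC100490271, which had 0 reads in both males and 19 and 12 in females (log2 -6.51, edgeR adjusted p = 0.0299). A second site of LOC100493137, at 7972200, spans 417 bases, the widest of the class, and lies 236 bases past dctpp1, an enzyme that clears dCTP. It had 0 reads in both males and 155 and 31 in females (at least 38.7-fold), beside 26 and 26 reads in males and 2607 and 1514 in females for dctpp1 (log2 -5.12 ± 0.72, edgeR adjusted p = 0.00663). Without female 1 its adjusted p was 0.142. LOC100496968 (748992, chromosome 6) had 0 reads in both males and 31 and 38 in females (at least 14.4-fold), 1484 bases past LOC100485134, which had 0 and 1 reads in males and 127 and 25 in females. It did not pass without female 1 or female 2 (edgeR adjusted p = 0.0612 and 0.0795).

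Phyhipl holds a pair of such sites on chromosome 7. At 7804915 there were 0 reads in both males and 22 and 24 in females, and at 7795689 there were 0 reads in both males and 28 and 13 in females (at least 9.58-fold and 8.54-fold). The host moved the other way, with 41 and 25 own-strand reads in males and 3 and 2 in females, a log2 fold change of 4.74 ± 0.95 (edgeR adjusted p = 0.0118). The noncoding RNA gene LOC105948002 (per RefSeq) on the sites' strand had 0 reads in both males and 86 and 28 in females (log2 -8.35, adjusted p = 0.0168 by edgeR), and its nearest site lies 1479 bases before the second. The first of the pair passed without male 2 and in no other such fit, and the second in none.

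The other 3 sites higher in females had 1 or 2 male reads in all. In LOC101732839 on chromosome 7 the site at 103267982 had 0 and 2 reads in males and 48 and 201 in females, a ratio of 77.8 in favour of females (21.3 to 646). It did not pass without female 2, which holds most of its reads. Wnt5b, a secreted Wnt ligand, had 1 and 1 reads in males and 32 and 48 in females at its site at 61198 on a scaffold, a log2 fold change of -4.52 ± 1.16 (edgeR adjusted p = 0.0238), and of the fits without 1 frog it passed in the one without male 2. Mybpc2, a fast skeletal muscle myosin-binding protein (104328648, chromosome 7), had 0 and 1 reads in males and 12 and 10 in females (-3.48 ± 1.08, edgeR adjusted p = 0.0401). This call was lost in DESeq2 (adjusted p = 0.194), with no filter (0.24) and at 1 CPM in 2 libraries (0.113), and it passed in no fit without 1 frog. Its own-strand sites, in a muscle gene, went the other way, with 2585 and 793 reads in males and 21 and 29 in females (7.07 ± 0.87, edgeR adjusted p = 0.00626).

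Other sites passed as well. Those in myh3, a myosin heavy chain of muscle (39698186, chromosome 10), and c1r, a protease of the complement system (930646, chromosome 7), are the only pair higher in males in a host that passed in the same direction. Myh3 had 26 and 15 opposite-strand reads in males and 1 and 1 in females (log2 4.83 ± 1.08, edgeR adjusted p = 0.0197), beside 16178 and 4668 own-strand reads in males and 2048 and 548 in females (4.05 ± 1.04). C1r had 30 and 9 opposite-strand reads in males and 1 and 0 in females, beside 105 and 85 own-strand reads in males and 56 and 32 in females. Males lie above females at both sites and in both hosts. The myh3 site passed in no fit without 1 frog, and the c1r site in the one without male 2.

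Other sites of this size lie in hosts that did not pass as higher in males. Wbp11, which encodes a protein of the splicing machinery (117906153, chromosome 4), had 32 and 14 reads in males and 2 and 2 in females (4.05 ± 1.02, edgeR adjusted p = 0.023), beside 60 and 53 own-strand reads in males and 790 and 292 in females (-2.07 ± 0.64), and it passed in no fit without 1 frog. Nans, the sialic acid synthase (97816349, chromosome 1), had 58 and 10 reads in males and 0 and 2 in females (5.36 ± 1.45) and could not be tested without male 1, and its own-strand sites did not pass (0.92 ± 0.55, edgeR adjusted p = 0.214). LOC100144974 (88666383, chromosome 7) had 36 and 20 reads in males and 1 and 0 in females, with 0 and 1 own-strand reads in males and 13 and 28 in females, and it did not pass without female 2 (edgeR adjusted p = 0.0915). It lies 1292 bases past foxred1, a factor for assembly of respiratory complex I, with 18 and 31 reads in males and 15 and 30 in females. For foxred1 the log2 fold change was 1.33 ± 0.88 (edgeR adjusted p = 0.261), and whether site and neighbour differ was not tested.

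Among 34 opposite-strand sites that passed and whose host was itself tested, 3 passed in the same direction as the host. Over all 9686 genes tested, 34.5% passed (16.5% higher in males, 18% higher in females). Of 26 sites higher in males, the host was higher in females at 7, higher in males at 2 and did not pass at 17. Of 8 sites higher in females, the host was higher in females at 1, higher in males at 3 and did not pass at 4. Where a neighbour lay within 5000 bases, 16 of 20 tested sites with a tested neighbour had its direction, and where it was farther away 21 of 47 did.

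At nsmce3 the host and the neighbour passed in opposite directions. Nsmce3 encodes a subunit of the SMC5/6 complex of genome maintenance, and its site at 8610375 on chromosome 8 had 106 and 25 reads in males and 4 and 1 in females (log2 5.20 ± 1.09). Without female 2 the site did not pass (edgeR adjusted p = 0.0585). The host had 8 and 9 reads in males and 64 and 144 in females (-2.46 ± 0.82, edgeR adjusted p = 0.048). Pfkfb1, which sets fructose 2,6-bisphosphate and ends 1216 bases before the site, had 503 and 382 reads in males and 306 and 280 in females (1.73 ± 0.55, edgeR adjusted p = 0.043). The pi4ka site, higher in males, lies 1469 bases past serpind1, the liver-made thrombin inhibitor heparin cofactor II, which had 423 and 420 reads in males and 78 and 44 in females (3.98 ± 0.64, edgeR adjusted p = 0.00767). Pi4ka itself did not pass, with 18 and 3 own-strand reads in males and 42 and 38 in females (-0.94 ± 0.92, edgeR adjusted p = 0.443).

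The pcid2 site at 112490807 on chromosome 2 had 44 and 34 reads in males and 12 and 6 in females, a log2 fold change of 2.84 ± 0.91 under TMM and -0.71 under the marker scaling. Of the fits without 1 frog it passed in the one without male 1. It lies 2062 bases past proz, a vitamin K-dependent plasma protein, with 0 and 20 reads in males and 2 and 7 in females. Pcid2, part of the mRNA export complex TREX-2, had 0 and 3 own-strand reads in males and 46 and 103 in females (log2 -4.36).

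A second test asked whether an opposite-strand site changed against the other sites assigned to the same gene (edgeR's diffSpliceDGE, per site). Of 10126 sites tested, 4.13% passed (2.33% with a larger part in males, 1.8% in females). Among 993 own-strand intronic sites 19.7% passed, 187 with a larger part in males and 9 in females. Among 152 sites opposite to exons 13.8% passed (7 and 14), and among 7509 exonic sites 1.85%. Of 81 opposite-strand sites in this test, 70 shared their gene with a tested own-strand site. Of the 81, 20 passed (24.7%), 16 with a larger part of the gene's reads in males and 4 in females. Of these 20, 17 also passed the site test. These calls need all 4 libraries. With any 1 frog left out, none had a larger part in males and 0 to 2 in females by edgeR, while 32 to 95 opposite-strand sites had an unadjusted p under 0.05.

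The shares below are of the site's reads and the host's exonic and downstream reads together. The use test differs, since it sets a site against all tested sites of its gene, intronic ones included. In chaf1a the opposite-strand site made up 6.24% and 4.55% of it and the own-strand reads together in males, and 0% in both females, against host reads of 421 and 210 in males and 5253 and 2574 in females (use difference 10.42 on the log2 scale, edgeR adjusted p = 0.00113). At mybpc2 the share was 0% and 0.126% in males and 36.4% and 25.6% in females (-9.64, edgeR adjusted p = 0.00122). At kctd5 it was 44.6% and 54.3% in males and 0.633% and 0% in females, and at mapk14 74.4% and 78.3% in males and 2.63% and 2.86% in females (edgeR adjusted p = 0.0192 and 0.0276). In these 4 genes the sexes do not overlap, which is no separate result, since all 4 were taken from the sites that passed. That share was not counted over all sites in the use test. For kctd5 and chaf1a the host itself was lower in males, by log2 values of -1.91 ± 0.58 and -2.54 ± 0.69.

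Other sites that passed the use test had shares of every size. The h3f3a site made up 9.30% and 8.47% in males and 0% in both females, with host reads of 234 and 162 in males and 211 and 326 in females. In nsmce3 the part was 93.0% and 73.5% in males and 5.88% and 0.690% in females, and in nfatc3 36.4% and 38.2% in males and 1.96% and 0% in females. In rbbp4, a histone-binding subunit of chromatin complexes, the part was 100% and 81.8% in males and 3.49% and 5.26% in females. It had 18 and 9 opposite-strand reads in males and 3 and 4 in females. Its own-strand reads were 0 and 2 in males and 83 and 72 in females, so the male shares rest on very few host reads. The site itself did not pass the site test (edgeR adjusted p = 0.0553).

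Most hosts held a single opposite-strand site. Of the 956 hosts 769 held 1 and 187 held more, with 505 sites among them. LOC100493137 held most, 14 sites spread over 581063 bases of chromosome 9 between 7856432 and 8437495, with 754 and 777 reads in males and 340 and 148 in females, against 10 and 8 own-strand reads in males and 1 and 0 in females. LOC101732839 held 10 sites over 563739 bases of chromosome 7, with 32 and 27 reads in males and 66 and 209 in females. Sites of other genes lie within both spans, dctpp1 in the first and phlda2 in the second. Both sets of sites depend on the gene models behind the class codes, which were not used here.

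The remaining 3 of the top 5 held 7 sites each. LOC100489579 on chromosome 9 packed its 7 into 5183 bases, with 513 and 1 reads in males and 12 and 1 in females, so that male 1 alone supplies them. Cdk2ap2, a regulator of cyclin-dependent kinase 2, had 42 and 33 reads in males and 1 and 2 in females over its 7. Wnt5b had 1 and 5 in males and 55 and 98 in females. The last pair are opposite in direction, with no overlap of the sexes in either. These sums were not tested, and over all tested sites 75.5% had no overlap. Of the cdk2ap2 sites 0 were tested, and of the wnt5b sites 2 were tested and 1 passed.

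Host genes were also grouped by function in 5 lists. Over all genes with a known strand, 6.52% held an opposite-strand site. Longer and more deeply read genes can hold more sites, and neither was allowed for, so the list counts are descriptions. Of 40 kinase and phosphatase genes with a known strand 13 held 16 sites, of which 2 were tested and 1 passed (mapk14, higher in males). The other, in the tyrosine kinase abl1, had 73 and 0 reads in males and 14 and 17 in females (log2 1.59 ± 1.55, edgeR adjusted p = 0.436). Of 58 chromatin and transcription cofactor genes 11 held 16 sites, and the 1 tested, in the remodeller chd1, did not pass, with 16 and 12 reads in males and 8 and 8 in females (1.49 ± 0.87, edgeR adjusted p = 0.203). Of 44 cytoskeleton and sarcomere genes 7 held 8 sites, and the 1 tested, in mybpc2, was higher in females.

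Axon guidance and adhesion genes held 6 sites in 5 of 44 genes and ion channels 3 in 2 of 16, and none had the reads to be tested. The ion channel sites had 247 and 1 reads in males and 10 and 0 in females, nearly all of them the cacna2d2 site of male 1. Host list genes themselves, summed over own-strand sites whether or not they hold an opposite-strand site, were higher in males in 23 of 38 tested cytoskeleton and sarcomere genes and higher in females in 1, where 16.5% and 18% of all tested genes passed in these directions. Skeletal muscle markers move with that list, with 19 of 19 higher in males. The lists share ttn, neb, actn3, ldb3, mybpc1 and mybpc2, so this likeness is partly built in. What part muscle tissue has in it was not tested. The other lists had 15 higher in males and 8 in females of 54 chromatin genes, 4 and 3 of 28 kinase and phosphatase genes, 6 and 1 of 17 axon guidance genes, and 3 and 2 of 6 ion channels.

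In the authors' deposited table, 46 opposite-strand sites had an FDR-adjusted p-value under 0.05 (3.61%), against 6.47% of all sites. By the sign of the authors' deposited fold, 26 were higher in males and 20 in females. Of these 46, 29 were also tested here and 27 passed in the same direction, while 17 fell under the read limit and 19 of the sites that passed here did not pass in the authors' deposited table.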

How the data were processed

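WTTS-seq libraries of 2 males and 2 females were compared, male over female. The deposited table holds raw read counts per site, with p-values (raw and adjusted) and a signed fold change, used as a score, from the authors' own test, per the file headers. The submitters' processing notes name Bowtie2 2.2.3. For the genome build and the grouping of reads into sites, nothing is given in the sources used here. Positions are those of the table, whose counting base (0 or 1) is not stated. Class codes were read as Cuffcompare codes, which the table does not state. Chromosome numbers come from the RefSeq gene table.

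All sites were tested together in edgeR 4.0.16 (R 4.3.3, limma 3.58.1): filterByExpr (minimum count 10), TMM, glmQLFit, glmQLFTest and diffSpliceDGE. Standard errors are the log2 fold change over the square root of F. Exact intervals (Clopper-Pearson) and floors of 3 reads cover counting error only, as reads carry no molecular identifiers in the labels. Fold ratios, their intervals and their floors use library sizes adjusted by TMM. With 2 frogs per sex, edgeR p-values rest on the spread between these frogs and on a variance estimate shared in part over all tested sites. The exact permutation test cannot give a p under 0.333. Named sites are the 10 of highest level, the 8 of highest level and the 8 of largest fold among those past the test in each direction (mean CPM of at least 2, sexes apart), the 10 of smallest use p, the 5 genes with most sites, and list members. Sites in cacna2d2, smc1a, caprin1, myh3, c1r, wbp11, nans, LOC100144974, rbbp4, arvcf, tmem220, pcsk7 and mapk15 were chosen after their values were seen. Members and lists were chosen with earlier results of these data known. Alternatives include DESeq2 1.42.0. The edgeR tests were first run on simulated data with known changes. Some results are not reported here.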

Additional observations from a re-analysis of the deposited data

How the results depend on the processing

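Directions depended most on scaling, the read limit and single frogs. Scaled to the somatic markers, 8 opposite-strand sites were higher in males and 31 in females, with a median log2 of -1.59, and over all sites 2.36% of calls were higher in males, against 44.8% with TMM. Without a filter 53 and 27 passed (median 0.36), and 4 and 2 in the use test. At 1 CPM in 2 libraries 84 and 79 passed (median 1.00), and 26 and 10 in the use test. Leaving out each frog gave 16 to 65 higher in males, 8 to 12 in females, medians of -1.78 to 5.43, and use calls of 0 in males and 0 to 2 in females. A lone frog is then assumed to vary like the other sex. Without sites near another gene, 6 were higher in females, 2 in the use test, with a median of 2.85 and a log2 ratio to own-strand intronic reads of -0.37. With a replicate block, 37 were higher in males and 11 in females (median 2.04), and 19 and 6 passed the use test. Frog numbers have no stated pairing. Across the tested sites, the difference of male 1 from male 2 correlated at 0.37 with that of female 1 from female 2. RLE size factors, library size alone and DESeq2 kept 46, 43 and 42 of the 46 calls. Reversed sites were med1 (library size -0.62, marker scaling -3.48, no filter -0.37, 1 CPM -0.32) and, under marker scaling, LOC100488359 (-1.64), rcan2 (-1.24), znf341 (-0.30), pcid2 (-0.71), chd1 (-2.05) and abl1 (-1.97). Leaving out 1 frog gave med1 -0.60 to 0.63, farp1 -0.78 to 10.51, prpf39.2 -1.82 to 0.48, nfx1 -0.18 to 7.18, znf341 -1.84 to 3.996 and abl1 -6.69 to 2.35. The cause of these changes was not tested. Depth limits the rest: 1176 of 1274 sites could not be tested.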
